A study of Mus musculus with 10 samples.

Results

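The genes described here encode collagen chains, laminin chains and integrin subunits, followed over 5 stages of the blood differentiation of mouse ES cells. Members were taken by gene symbol alone from the 15686 genes of the averaged expression matrix deposited for the study: symbols of the form Col, number, a, number, of the form Lam, a, b or c, number, and of the form Itga or Itgb followed by digits or small letters. Of 78 matches, Itga2b, Itgb3 and Itgam were left out by the rule, Itga2b being the sort antigen CD41. The remaining 75 members are 40 collagen chains, 11 laminin chains, 21 integrin subunits and 3 genes that share the letters of the pattern without being integrin subunits (Itgb1bp1, Itgb1bp2 and Itgb3bp, which encode proteins named for binding an integrin tail). All 75 had enough counts to be tested. The 8 further genes with such symbols that are not in it, Col4a3, Col4a4, Col10a1, Col28a1, Itgad, Itgb6, Itgbl1 and Itgb2l, had at most 15 counts in any library.

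Nuclear RNA was sequenced in 10 libraries, 2 for each stage, from HM-1, an established mouse ES cell line used for gene targeting. ES cells were grown on gelatine with serum and LIF. HB cells were selected on beads as FLK1+ cells from embryoid bodies that had floated for 3 d in serum medium with ascorbic acid and transferrin. The later cells were sorted by flow cytometry after plating FLK1+ cells on gelatine-coated flasks for a further 2.5 d in blast medium, which held serum, ascorbic acid, transferrin, D4T-conditioned medium, VEGF and IL-6. Cells with KIT and TIE2 but without CD41 make up HE1, cells with all 3 antigens HE2, and cells with KIT and CD41 but without TIE2 HP. All stages come from the same line and were kept in serum. The study describes the 2 libraries of a stage as biologically independent, and p-values measure the spread between them. Surface, medium and sorting method differ between ES, HB and the later cells and cannot be told apart from the stage.

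Collagens are triple-helical proteins built from α chains. Type IV forms the sheet of the basement membrane, the fibrillar types I, III and V form the fibers of connective tissue, and smaller classes decorate fibers or span the membrane. Laminins are cross-shaped trimers of an α, a β and a γ chain that start the basement membrane, and integrins are αβ receptors that bind these proteins, fibronectin or counter-receptors on other cells. In the embryo, blood cells arise from hemogenic endothelium, a vessel lining that rests on a basement membrane, and leave it as rounded cells that carry leukocyte integrins.

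Several members lie side by side in the mouse genome (mm10, which is GRCm38). Col4a1 (chr8:11198423-11312826, minus strand) and Col4a2 (chr8:11312805-11449287, plus strand), the main type IV chains, run head to head and overlap by 22 bases on opposite strands. The counts were made by strand, and no other tested member shares exon bases of its own strand with a neighbour above 4%, except Itga10, for which 33.5% is shared with Gm42957 and whose values are therefore uncertain. Col4a6 (chrX:141165403-141474076, minus strand) and Col4a5 (chrX:141475385-141689234, plus strand) are also head to head, with 1308 bases between them. Itga2 (chr13:114833081-114932100) and Itga1 (chr13:114953096-115101964), α subunits of collagen receptors, follow each other on the minus strand 20995 bases apart.

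The bases just upstream of the start are shown for the Itga1 and Itga2 pair and the Col4a5 and Col4a6 pair, since their members moved together or diverged over the stages, and for Itga4 (chr2, plus strand), which was called higher at 3 successive steps. They were taken from RefSeq (GRCm38.p6), of which windows for 54 of the 75 members were held here, and are printed from 5′ to 3′ on the strand of the gene, without bases that the annotation counts as exon. The strings searched on both strands were AGATAA for the GATA factors, GGAAGT for the ETS factors, TGTGGT for the RUNX factors, GGGCGG for the SP factors, TGANTCA for the AP-1 factors and GGAATG for the TEAD factors, and matches are in capitals. No matches overlap in the stretches below. The Col4a5 stretch is shorter, since it stops where the gene begins in the annotation used for counting, 34 bases before the RefSeq start.
Itga1, chr13:115101965-115102214, minus strand: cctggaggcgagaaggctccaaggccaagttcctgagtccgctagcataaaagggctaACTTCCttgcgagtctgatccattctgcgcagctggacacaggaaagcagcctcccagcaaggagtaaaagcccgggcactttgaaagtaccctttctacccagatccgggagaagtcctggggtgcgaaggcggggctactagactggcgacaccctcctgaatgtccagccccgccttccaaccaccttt
Itga2, chr13:114932101-114932350, minus strand: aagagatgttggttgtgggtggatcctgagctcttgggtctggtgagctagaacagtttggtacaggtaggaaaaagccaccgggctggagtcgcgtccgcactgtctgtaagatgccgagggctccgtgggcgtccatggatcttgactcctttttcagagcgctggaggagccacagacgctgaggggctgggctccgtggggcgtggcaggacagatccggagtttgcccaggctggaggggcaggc
Itga4, chr2:79255176-79255425, plus strand: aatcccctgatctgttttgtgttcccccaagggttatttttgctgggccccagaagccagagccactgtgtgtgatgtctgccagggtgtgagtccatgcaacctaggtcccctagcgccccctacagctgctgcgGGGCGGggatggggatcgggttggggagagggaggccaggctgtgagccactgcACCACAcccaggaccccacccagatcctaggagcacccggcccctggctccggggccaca
Col4a5, chrX:141475169-141475384, plus strand: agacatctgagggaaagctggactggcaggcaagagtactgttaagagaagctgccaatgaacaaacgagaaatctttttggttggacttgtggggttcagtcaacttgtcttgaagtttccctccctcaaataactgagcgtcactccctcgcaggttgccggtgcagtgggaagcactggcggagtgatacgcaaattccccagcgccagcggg
Col4a6, chrX:141474077-141474326, minus strand: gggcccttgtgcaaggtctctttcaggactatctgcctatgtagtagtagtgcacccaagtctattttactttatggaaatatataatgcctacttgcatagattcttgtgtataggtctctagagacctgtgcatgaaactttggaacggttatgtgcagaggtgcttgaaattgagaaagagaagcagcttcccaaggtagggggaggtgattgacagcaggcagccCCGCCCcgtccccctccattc
The Itga1 stretch held 1 match to the ETS string, the Itga4 stretch 1 each to the RUNX and SP strings, and the Col4a6 stretch 1 to the SP string, whereas the Itga2 and Col4a5 stretches held none. Over all 32851 windows, the 250 bases before the start held the ETS string in 19.7%, the RUNX string in 14.0%, the SP string in 32.7%, the TEAD string in 12.6%, the GATA string in 9.99% and the AP-1 string in 6.75%. For the 59 windows of members these shares were 22.0%, 8.47%, 50.8%, 11.9%, 6.78% and 3.39%, in the same order. A match describes the letters and is not a binding site.

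Libraries held between 24920434 and 58782055 counts on genes, so that 3 counts, taken here as the floor, stand for 0.0510 to 0.120 CPM. CPM are counts scaled to a common library size with TMM factors, and levels below are given for the first and then the second library of a stage. Levels of different genes are compared only as CPM per kb of exon. Transcripts of the sort antigens followed the gates in part. Kdr (FLK1) was at 957 and 1284 CPM in HB against 2.43 and 2.70 in ES, and Tek (TIE2) at 61.5 and 64.2 CPM in HP against 564 and 294 in HE1. Itga2b (CD41) was highest in HE2 and HP (367 to 505 CPM), but in HE1, sorted without CD41, it lay at 227 and 127 CPM, above HB (48.0 and 34.5). Kit was at 146 and 73.0 CPM in HE1, below ES (164 and 173). HE1 libraries differed in that the summed level of 5 pluripotency markers was 6.31 CPM in the first and 67.0 CPM in the second, which is 0.322% and 3.42% of the ES mean, and Tnnt2, a cardiac marker, lay at 16.0 and 74.2 CPM. HE2 libraries differed as well, with 88.0% of the members higher in the first library against 51.8% of all tested genes, and Cdh5 (VE-cadherin) at 862 and 412 CPM. Among 10 markers of mesenchyme and smooth muscle, Acta2 stood at 529 and 249 CPM and Tagln at 219 and 108 CPM in HP, whereas Dcn and Lum did not exceed 0.463 CPM in any library. For 11 markers of primitive and visceral endoderm, a tissue rich in laminin and type IV collagen, the summed level ran from 4.07 to 39.7 CPM and was highest in ES. Most of the ES sum came from Rhox5 alone, at 23.7 and 24.7 CPM. Afp and Ttr were at 0 CPM in ES, and Cubn, Foxa2 and Apoa1 were lower in ES than in HE1. What part these markers take in the results below was not tested, and in bulk libraries fewer cells of a type cannot be told apart from less RNA per cell.

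Members moved in both directions at the steps up to HE1, and mainly downwards from HE1 to HP. A member was called when the adjusted p of edgeR's quasi-likelihood test (Benjamini-Hochberg over all 22596 tested genes) was under 0.05 and the change was at least 2-fold. From ES to HB, 23 members were called higher and 22 lower, or 30.7% and 29.3% of them, against 11.5% and 17.3% of all tested genes. The first number fell when either ES library was left out, and so did the number of all tested genes called higher. From HB to HE1, 30 were higher and 13 lower (40.0% and 17.3%), against 12.7% and 8.19% of all genes. The median log2 fold change over the members was 0.695 at this step and -0.118 at the one before.

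From HE1 to HE2, 3 members were higher and 12 lower (4.0% and 16.0%), against 3.26% and 5.39% of all genes. This step leaned on single libraries: without HE1 replicate 2 only 1 member was called lower and without HE2 replicate 2 none was, whereas the number was 26 without HE1 replicate 1 and 33 without HE2 replicate 1. All tested genes moved likewise, with 1217 called lower in all, 260 and 98 without the former libraries, and 2927 and 2118 without the latter. Between HE2 and HP no member was called in either direction, as for 0.0% of all genes each way. At an unadjusted p under 0.05, 5 members lay higher and 14 lower in HP, against 2.97% and 4.93% of all genes. limma-voom called Itgb2 higher and Col18a1 lower, against 0.155% and 0.119% of all genes, and DESeq2 called 2 higher and 7 lower, against 0.478% and 0.854%. From HE1 to HP directly, which uses the same HE1 libraries as the step to HE2, 5 were higher and 26 lower (6.67% and 34.7%), against 5.35% and 11.2% of all genes. The 26 became fewer without HE1 replicate 2 or HP replicate 1 and more without HE1 replicate 1. The number of all tested genes called lower moved in the same directions. The 10 members called in none of the 5 comparisons were Col6a5, Col7a1, Col9a3, Col11a1, Itga11, Itgae, Itgb1, Itgb8, Itgb1bp1 and Itgb1bp2, named after their values were seen.

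By family, collagen chains gave 15 higher and 10 lower calls from ES to HB, 17 and 8 from HB to HE1, and 0 and 13 from HE1 to HP. Laminin chains gave 3 and 6, 3 and 1, and 0 and 6 in the same comparisons. Integrin subunits gave 4 and 6, 10 and 4, and 5 and 7. The shares of all tested genes were the 11.5% and 17.3%, 12.7% and 8.19%, and 5.35% and 11.2% given above, so that the single laminin chain lower in HE1 is near the background. Across the stages, 28 members (37.3%) had their highest mean level in HE1, compared with 18.6% of the genes of the matrix. A further 24 were highest in ES and 15 in HB (32.0% and 20%), close to the 35.3% and 17.8% of the matrix, 7 in HP and 1, Itgb3bp, in HE2 (9.33% and 1.33%, against 17.2% and 11.1%). HE1 was the highest stage for all 4 type IV chains, and ES for 6 of the 11 laminin chains.

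**Figure D1:**
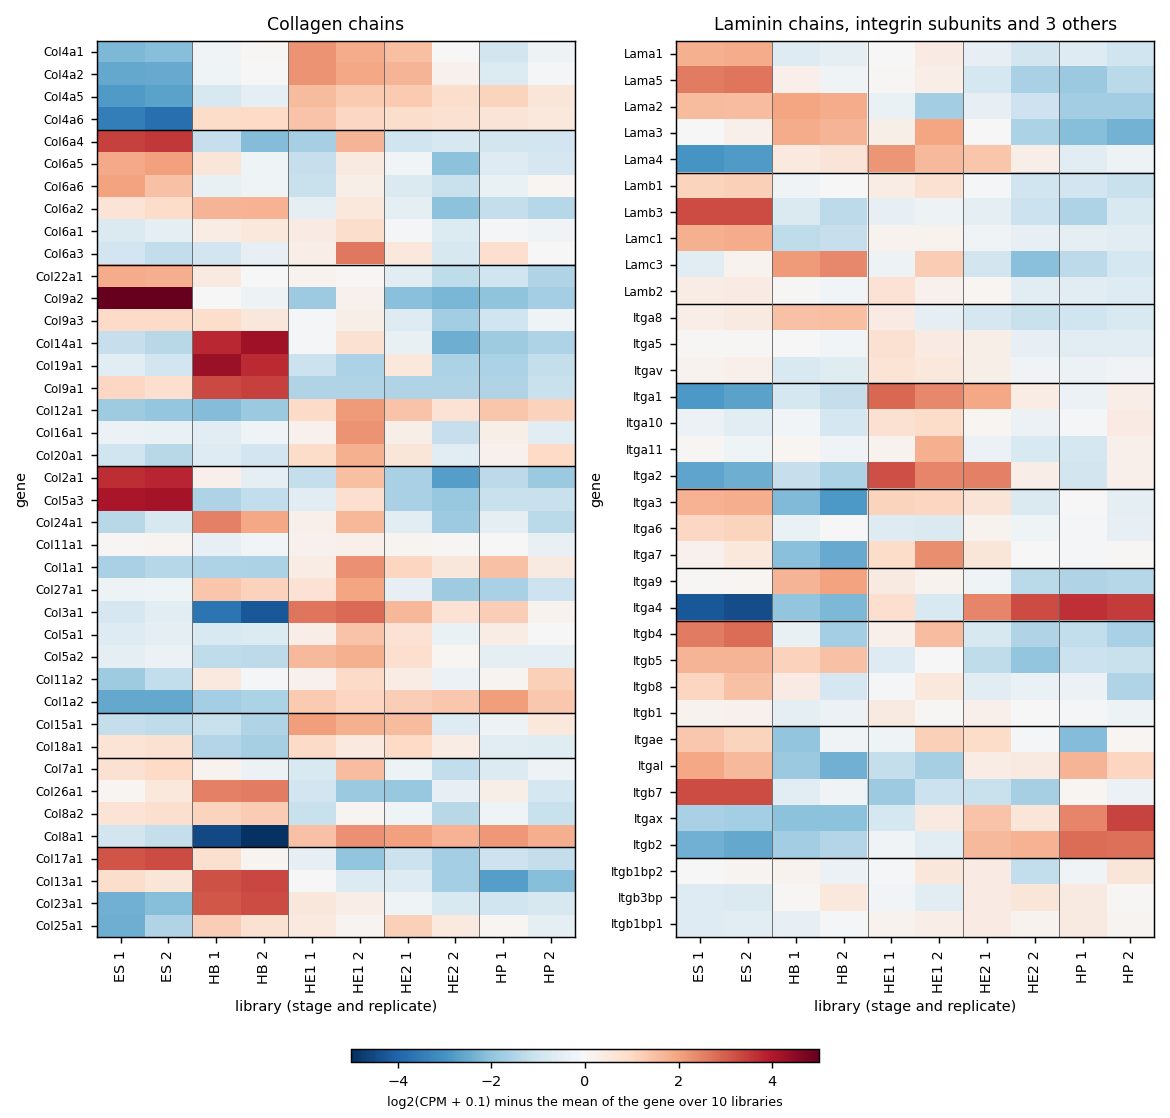
Heat map of 74 of the 75 members (rows, grouped by class) in the 10 libraries (columns, stage and replicate); color is log2(CPM + 0.1) minus the mean of the gene over all libraries. Groups of genes that are high in ES, in HB, or in HE1 stand out as red blocks, and Itga4 and Itgb2 are red in HE2 and HP; HE2 replicate 1 is redder than HE2 replicate 2 for 65 of those 74.

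Of the 4 type IV chains, 4 rose from ES to HB and 3 from HB to HE1, against 11.5% and 12.7% of all tested genes. The main chains were the highest members per kb in HE1. Col4a1, one of the main network chains, was at 148 and 161 CPM in ES, at 618 and 727 in HB, at 3349.5 and 2546 in HE1, at 1994 and 706.0 in HE2, and at 372 and 592 in HP. Col4a2, its partner in the same trimer, was at 70.5 and 73.0, 363 and 423, 2005 and 1588, 1373 and 484, and 260.5 and 394 CPM in the same order. For both chains the libraries of ES, HB and HE1 did not overlap, HE2 lay spread between HE1 and HP, and HP lay below HB for Col4a1 and overlapped it for Col4a2. The log2 fold change of Col4a1 was 2.12 ± 0.41 (SE) from ES to HB (adjusted p = 0.00226, edgeR) and 2.13 ± 0.41 from HB to HE1 (adjusted p = 0.00357). It was -2.61 ± 0.42 from HE1 to HP (adjusted p = 0.00189), and the fall from HE1 to HE2 was not called (-1.13 ± 0.40, adjusted p = 0.0810). Col4a2 gave 2.45 ± 0.41, 2.19 ± 0.40 and -2.46 ± 0.41 for the 3 called comparisons. The summed level of 8 endothelial markers was 221 and 228 CPM in ES, 1335 and 1617 in HB, and 4630 and 3072 in HE1. It was 2963 and 1707 CPM in HE2 and 836 and 913 in HP. Within that list, Pecam1 was lower in HB than in ES, and Kdr overlapped between HB and HE1. The part of these markers in the type IV levels was not tested.

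The minor type IV chains were not called at any step after HE1. Col4a5, whose loss underlies Alport syndrome, rose from 3.94 and 4.33 CPM in ES to 16.3 and 20.4 in HB and 86.1 and 70.6 in HE1, and remained at 71.8 and 52.9 CPM in HE2 and at 61.2 and 43.6 in HP. Col4a6, its neighbour, jumped from 0.745 and 0.574 CPM in ES to 17.4 and 18.2 in HB, where the log2 fold change was 4.73 ± 0.25, and then moved little, with 24.4 and 19.0 CPM in HE1 and 14.4 and 13.2 in HP. Neither was called lower in HP than in HE1 (-0.58 ± 0.21, adjusted p = 0.0735, and -0.65 ± 0.20, adjusted p = 0.0372, under 2-fold). Per kb, Col4a5 exceeded Col4a6 by a ratio of 6.27 and 8.96 in the ES libraries, of 1.11 and 1.33 in HB and of 4.19 and 4.42 in HE1, so that HB was a dip, and by 3.93 to 5.07 in the HE2 and HP libraries. The share of Col4a5 in the summed CPM per kb of type IV chains went from 1.67% and 1.77% in HE1 to 9.11% and 4.41% in HP. The ratio of Col4a1 to Col4a2 per kb stayed between 1.27 and 1.96 in all libraries and was highest in ES.

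Col18a1, a basement membrane multiplexin and the source of endostatin, took a V-shaped course. It was at 1196 and 1265 CPM in ES, fell to 275 and 238 in HB, regained 1469.7 and 1048 in HE1 and 1485 and 968 in HE2, and stood at 528 and 493 in HP. Log2 fold changes were -2.26 ± 0.24 from ES to HB (adjusted p = 5.21e-05), 2.30 ± 0.24 from HB to HE1 (adjusted p = 0.000109) and -1.30 ± 0.24 from HE1 to HP (adjusted p = 0.00334). HE1 and HE2 overlapped, and the HE2 libraries both lay above those of HP. That last step missed the threshold in edgeR (-1.27 ± 0.24, adjusted p = 0.0908) and passed it in limma-voom (adjusted p = 0.0457) and in DESeq2 (adjusted p = 1.14e-05). The other multiplexin, Col15a1, was under 0.4 CPM in ES and HB and at 4.16 and 3.30 CPM in HE1, where it was called higher.

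**Figure D2:**
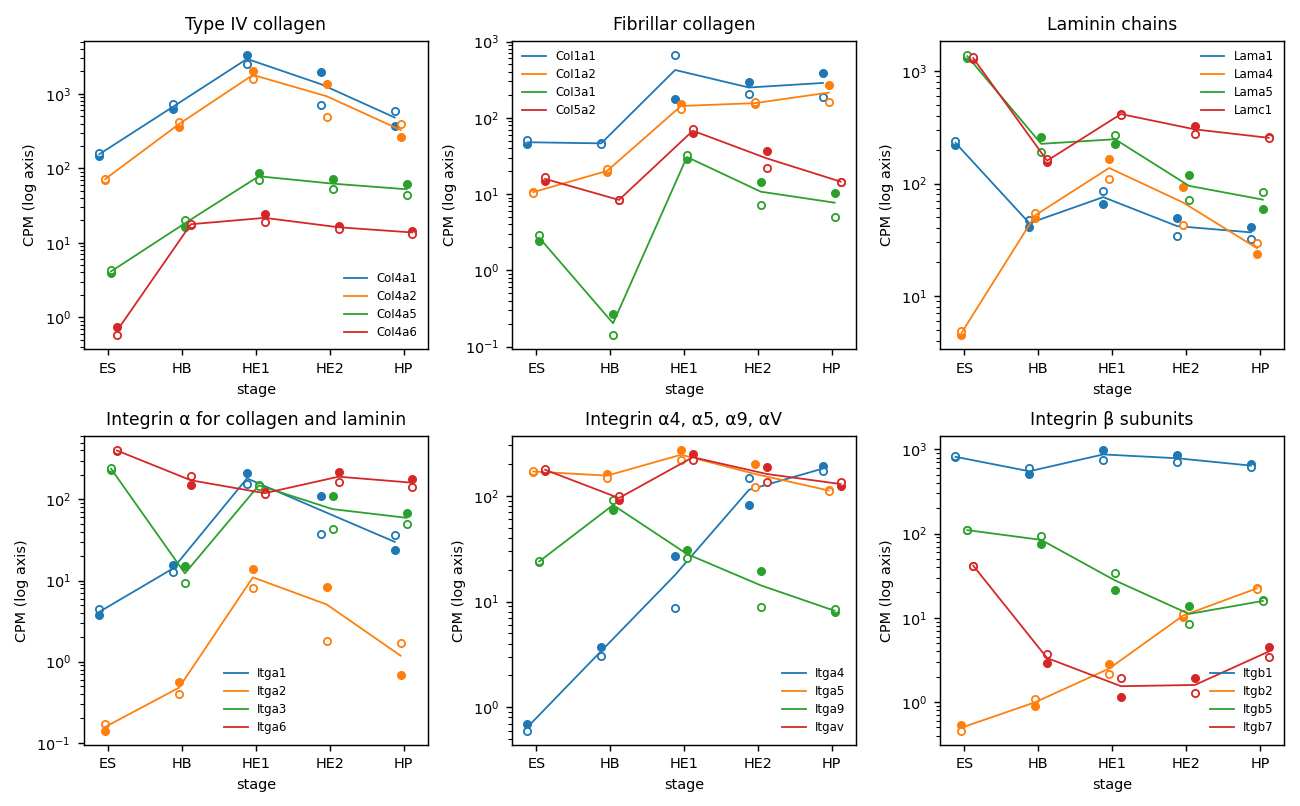
CPM on a log axis for 24 members in 6 panels by stage; filled points are replicate 1, open points replicate 2, and lines join the means of 2 libraries. Col4a1 and Col4a2 peak in HE1, Lama5 and Lamc1 are highest in ES, and Itga4 goes from under 1 CPM in ES to 191 and 172 CPM in HP.

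Most laminin chains were highest in ES cells. Lama5, the most widespread α chain of basement membranes, was at 1315 and 1396 CPM in ES, at 259 and 191 in HB, at 224 and 272 in HE1, at 119.8 and 71.0 in HE2, and at 59.3 and 84.5 in HP. Lamc1, the γ chain of most laminins, was at 1274 and 1332 CPM in ES, at 154 and 165 in HB, at 419 and 411 in HE1, at 328 and 278 in HE2 and at 258 and 252 in HP. The fall from ES to HB was -2.59 ± 0.28 for Lama5 (adjusted p = 5.37e-05) and -3.03 ± 0.16 for Lamc1 (adjusted p = 7.90e-07). Lamc1 then rose from HB to HE1 by 1.38 ± 0.15 (adjusted p = 0.000126), whereas the change of Lama5 did not pass (0.14 ± 0.26, adjusted p = 0.718). From HE1 to HP Lama5 fell by 1.79 on the log2 scale (adjusted p = 0.00141), and Lamc1 missed the 2-fold limit (-0.70 ± 0.15).

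Lama1, the laminin α chain of the early embryo, fell from 222 and 238 CPM in ES to 41.2 and 47.6 in HB, with a log2 fold change of -2.37 ± 0.21. Lamb1, the β chain of the same trimer, went from 492 and 521 CPM to 201 and 224 (-1.25 ± 0.25), and was at 299 and 389 in HE1 and at 117 and 105 in HP. Lamb3, an epithelial β chain, dropped from 12.9 and 12.8 CPM in ES to 0.727 and 0.451 in HB (-4.45 ± 0.45, adjusted p = 3.49e-05), and did not exceed 1.02 CPM in any later library. Lama3, an epithelial α chain, moved the other way, with 4.67 and 5.68 CPM in ES and 17.6 and 15.4 in HB, but this call was lost without any single library of ES or HB (adjusted p from 0.0783 to 0.138).

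Lama4, the α chain of vessel laminins, peaked in HE1. It was at 4.47 and 4.88 CPM in ES, at 49.3 and 55.1 in HB, at 166 and 109 in HE1, at 92.7 and 43.0 in HE2, and at 23.6 and 29.6 in HP. Its log2 fold change was 3.48 ± 0.35 from ES to HB (adjusted p = 3.47e-05), 1.40 ± 0.32 from HB to HE1 (adjusted p = 0.00787) and -2.37 ± 0.33 from HE1 to HP (adjusted p = 0.000906). Without HB replicate 1, the rise to HE1 was 1.25 and its adjusted p 0.0607. The laminin chains called lower in HP than in HE1 were Lama1, Lama3, Lama4, Lama5, Lamb1 and Lamb2. Lama1 was not called without HE1 replicate 2 (-0.84) or without HP replicate 2 (-0.85), and Lamb2 not without HE1 replicate 1 (-0.76) or HP replicate 1 (adjusted p = 0.0503).

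Between HE1 and HE2, Lama5 (-1.38 ± 0.27, adjusted p = 0.0144), Lamb1 (-1.07 ± 0.25, adjusted p = 0.0264) and Lama3 (-2.0 ± 0.56, adjusted p = 0.0431) were called lower. Each lost the call without HE1 replicate 2, with log2 fold changes of -1.23, -0.87 and -0.92. Without HE2 replicate 2 they were -1.03, -0.68 and -1.39, again not called. Lama3 also lost it without any single library of ES, HB or HP (adjusted p from 0.0520 to 0.0639).

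Of 11 fibrillar collagens, 6 were called higher and none lower in HE1 than in HB, where 12.7% and 8.19% of all tested genes were. They were both type I chains, Col3a1, Col5a1, Col5a2 and Col5a3, the last not called without HE1 replicate 2 (adjusted p = 0.158) or without either HB library. Col1a1 and Col1a2 encode the chains of type I collagen, the main collagen of connective tissue. Col1a1 was at 45.0 and 50.6 CPM in ES, at 46.7 and 45.7 in HB, at 176 and 671 in HE1, at 294 and 205 in HE2, and at 386 and 187 in HP. Col1a2 was at 10.7 and 10.5, 19.2 and 21.1, 154 and 132, 149.9 and 162, and 267 and 161 CPM. Both were above HB in every later library. The later stages overlapped for Col1a1, while for Col1a2 both HP libraries lay above those of HE1, a difference of 0.58 ± 0.21 that did not pass (adjusted p = 0.0637). Log2 fold changes from HB to HE1 were 3.20 ± 0.54 for Col1a1 (adjusted p = 0.00169) and 2.83 ± 0.22 for Col1a2 (adjusted p = 2.00e-05). For Col1a1 it was 1.94 without HE1 replicate 2 and 3.81 without HE1 replicate 1. The 10 markers of mesenchyme and smooth muscle moved in different directions at the same step, and their summed level was 246 and 245 CPM in HB and 679 and 1024 in HE1. Acta2 went from 2.25 and 2.06 CPM in HB to 403 and 569 in HE1, Tagln from 11.6 and 7.04 to 211 and 349.8, and Postn, a matrix protein of mesenchyme, from 0.298 and 0.169 to 25.5 and 39.8. Pdgfra was instead at 193 and 196 CPM in HB and at 6.52 and 6.01 in HE1, Thy1 at 3.54 and 3.24 and at 0.294 and 0.231, and Pdgfrb overlapped (32.3 and 33.2, and 24.0 and 38.7). In HP, Acta2 was at 529 and 249 CPM and Postn at 51.3 and 23.5, with the first library higher as for both type I chains. The part of these markers in the collagen levels was not tested.

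Col3a1, a fiber-forming chain of vessel walls, was nearly absent from HB, with 8 and 5 counts or 0.264 and 0.141 CPM, against 2.45 and 2.93 CPM in ES and 28.8 and 32.5 in HE1. It rose by 7.24 ± 0.55 from HB to HE1 (adjusted p = 1.76e-05) and was then at 14.2 and 7.30 CPM in HE2 and at 10.5 and 4.96 in HP. Col5a2, which takes part in starting fibrils, followed it. It was at 8.43 and 8.34 CPM in HB, at 64.0 and 71.4 in HE1, at 37.1 and 21.8 in HE2 and at 14.6 and 14.5 in HP. From HE1 to HP, Col3a1 changed by -1.98 ± 0.39 (adjusted p = 0.00529) and Col5a2 by -2.22 ± 0.23 (adjusted p = 0.000237), whereas neither type I chain was called. Their lower values in HE2 than HE1 (-1.51 ± 0.39 and -1.20 ± 0.23) were not called without HE1 replicate 2 (-1.42 and -1.12) or HE2 replicate 2 (-1.09 and -0.85). Without HP replicate 1 the fall of Col3a1 to HP was -2.61.

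Col27a1, a fibrillar chain of developing cartilage, went from 9.53 and 9.93 CPM in ES to 30.4 and 25.3 in HB, and was at 19.1 and 44.6 in HE1 and at 3.67 and 5.56 in HP. Its rise from ES to HB (1.52 ± 0.45) was not called when any single ES or HB library was left out (adjusted p from 0.0519 to 0.0868). Its fall from HE1 to HP was -2.79 ± 0.48 (adjusted p = 0.00252), and -2.05 without HE1 replicate 2. Between HE1 and HE2 it changed by -2.42 ± 0.47, which was not called without HE1 replicate 2 (-1.69) or HE2 replicate 2 (-1.87) and was -3.26 without HE2 replicate 1. Col2a1 and Col5a3 were instead ES transcripts. Col2a1, the type II chain of cartilage, was at 44.3 and 47.3 CPM in ES, at 3.97 and 2.34 in HB, and at 1.39 and 9.51 in HE1. Col5a3 was at 16.4 and 17.3 CPM in ES and 0.231 and 0.310 in HB. Their log2 fold changes from ES to HB were -3.87 ± 0.69 and -5.93 ± 0.52. In HE1, both were higher in replicate 2, the library with the higher level of pluripotency transcripts, and a link was not tested. Their lower calls in HP against HE1 were lost without HE1 replicate 2 (-0.36 and -0.66) and also without either HP library.

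A separate group of collagens marked HB. Col23a1 and Col13a1, which span the plasma membrane, were at 48.5 and 54.0 CPM and at 27.8 and 31.4 CPM in HB, against 0.976 and 1.18 CPM and 5.53 and 4.56 CPM in ES. In HE1 they were back at 8.33 and 7.04 CPM and at 2.94 and 1.82 CPM. Col14a1, a fibril-associated chain, was at 0.621 and 0.516 CPM in ES, at 21.5 and 29.8 in HB, and at 1.43 and 2.64 in HE1. Each of these 3 was called in both directions. From ES to HB the log2 fold changes were 5.58 ± 0.27 for Col23a1 (adjusted p = 5.87e-07), 2.55 ± 0.37 for Col13a1 (adjusted p = 0.000365) and 5.47 ± 0.62 for Col14a1 (adjusted p = 7.53e-05). From HB to HE1 they were -2.74 ± 0.24, -3.64 ± 0.40 and -3.64 ± 0.56. Pdgfra, from the list of mesenchyme and smooth muscle markers and also a receptor of paraxial and cardiac mesoderm, was likewise high in HB, at 193 and 196 CPM there and below 7 CPM in all other libraries.

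The neighbours Col9a1 and Col19a1, fibril-associated chains that lie 9205 bases apart on chromosome 1, were named after their values were seen, being below the limit of 9 CPM used to name genes. Col9a1 had 82 and 104 counts in HB and 0 in both libraries of HE1 and of HE2, which makes it at least 49.2-fold lower in HE1 than in HB when 3 counts over the stage are taken as the floor. Col19a1 had 179 and 141 counts in HB and 1 and 0 in HE1, a ratio of 254 with a 95% exact counting interval from 45.3 to 1.01e+04. Intervals and floors here cover counting error only, since read pairs were counted without molecular identifiers. Col9a2, another type IX chain, was at 29.8 and 30.7 CPM in ES and under 1 CPM in every other library.

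Other collagens rose from HB to HE1. Col12a1, a fibril-associated chain, was at 4.98 and 4.50 CPM in ES, at 3.74 and 4.68 in HB, at 33.4 and 75.8 in HE1, and at 45.3 and 38.1 in HP. The log2 fold change was 3.70 ± 0.39 from HB to HE1 (2.99 without HE1 replicate 2). Col8a1, a short-chain collagen of vessel walls, had 84 and 43 counts in ES, 1 and 0 in HB and 198 and 444 in HE1. The ratio of HE1 to HB was 808 with a 95% exact counting interval from 145 to 3.20e+04. It remained at 13.6 and 10.7 CPM in HP. Col20a1 reached 9.59 and 17.7 CPM in HE1 from 3.17 and 2.56 in HB, a call that missed the threshold without HB replicate 2 (adjusted p = 0.0508), and was at 7.77 and 3.46 in HE2 and at 5.91 and 10.0 in HP. The 6 type VI chains were all below 7 CPM, and the 2 of them called higher in HE1 than HB, Col6a3 and Col6a4, gave 1.27 and -0.12 without HE1 replicate 2 and were not called, nor were they without either HB library.

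Of 4 integrin α subunits that bind collagen, 3 were called higher in HE1 than in HB, as were 12.7% of all tested genes. Itga1, which pairs with β1 and prefers type IV collagen, was at 3.80 and 4.42 CPM in ES, at 15.6 and 12.6 in HB, at 208 and 155 in HE1, at 109.7 and 37.3 in HE2, and at 23.6 and 36.3 in HP. Itga2, its neighbour and part of the receptor for fibrillar collagen on platelets, was at 0.142 and 0.172, 0.562 and 0.394, 13.8 and 8.06, 8.35 and 1.78, and 0.684 and 1.68 CPM. In both, HE1 lay above every other library except that the first HE2 library of Itga2 exceeded the second of HE1, and HP overlapped neither HE1 nor HB. From HB to HE1, Itga1 rose by 3.69 ± 0.44 (adjusted p = 0.000230) and Itga2 by 4.51 ± 0.76 (adjusted p = 0.00158). From HE1 to HP they changed by -2.60 ± 0.42 (adjusted p = 0.00195) and -3.22 ± 0.69 (adjusted p = 0.00798), the latter not called without HP replicate 1 (-2.68, adjusted p = 0.0785). The ratio of Itga1 to Itga2 per kb lay between 5.04 and 13.2 over the 10 libraries. Itga10 and Itga11, the remaining collagen receptors, were below 10 CPM throughout. Itga10 was higher in HE1 than in HB by 1.33 ± 0.33, not called without HB replicate 2 (adjusted p = 0.133), and the change of Itga11 did not pass (1.36 ± 0.68, adjusted p = 0.145).

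Laminin-binding α subunits split. Itga3 was at 232 and 245 CPM in ES, at 15.1 and 9.38 in HB, at 151 and 146 in HE1, at 109 and 42.8 in HE2, and at 68.3 and 50.2 in HP. It thus followed the V of Col18a1, with -4.29 ± 0.41 from ES to HB (adjusted p = 2.55e-05) and 3.61 ± 0.40 from HB to HE1 (adjusted p = 0.000141). Its fall to HP (-1.33 ± 0.36, adjusted p = 0.0236) was lost without HE1 replicate 2, HP replicate 1 or HP replicate 2 (adjusted p = 0.0781, 0.0739 and 0.117). Itga6, the laminin receptor of many stem cells, was at 393 and 406 CPM in ES, at 151 and 193 in HB, at 122 and 116 in HE1, at 216 and 165 in HE2, and at 177 and 144 in HP. Only its fall from ES to HB was called (-1.22 ± 0.18, adjusted p = 0.000473). From HE1 to HE2 it was higher by 0.68 ± 0.18, which passed the test (adjusted p = 0.0391) but not the 2-fold limit, and all HE2 and HP libraries lay above those of HE1. Itga7 rose from 0.827 and 0.592 CPM in HB to 7.36 and 19.8 in HE1 (4.26 ± 0.51, and 3.38 without HE1 replicate 2). Its falls from HE1 to HE2 and to HP were not called without HE1 replicate 2 (-0.60 and -0.97), and the fall to HP was also lost without HP replicate 1 (adjusted p = 0.0912). The call in HE2 held only when HE1 replicate 1 or HE2 replicate 1 was the library left out, and the change was -1.19 without HE2 replicate 2. Itgb4, the β subunit that joins α6 in hemidesmosomes, fell from 22.4 and 25.8 CPM in ES to 2.74 and 1.04 in HB (-3.68 ± 0.53, and -4.50 without HB replicate 1).

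The 3 integrin α subunits that bind the RGD sequence of fibronectin and vitronectin were each called in at least 1 comparison. From HB to HE1, 1 was called higher and 1 lower, as were 12.7% and 8.19% of all tested genes. Itga5, the fibronectin receptor subunit, was at 169 and 171 CPM in ES, at 162 and 149 in HB, at 272 and 218 in HE1, at 201 and 121 in HE2 and 113 and 111 in HP, and was called only for the fall from HE1 to HP (-1.12 ± 0.22, adjusted p = 0.00474; -0.93 and under the 2-fold limit without HE1 replicate 1). Itgav was at 173 and 180.1, 90.4 and 100.2, 247 and 217, 187 and 135, and 124 and 134 CPM, and was called for the rise from HB to HE1 (1.28 ± 0.17, adjusted p = 0.000432). Itga8 stood out in HB, at 16.6 and 17.2 CPM against 7.61 and 8.18 in ES and 7.95 and 4.23 in HE1. Its rise (1.10 ± 0.30) was not called without any single ES or HB library (adjusted p from 0.0525 to 0.0951), and its fall was called (-1.48 ± 0.31).

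Itgb1, the β subunit shared by most matrix receptors, was not called in any comparison. It was at 806 and 829 CPM in ES, at 507 and 594 in HB, at 986 and 759 in HE1, at 856 and 715 in HE2 and at 674 and 611 in HP, so that HB was the lowest stage. The difference from ES (-0.57 ± 0.18, adjusted p = 0.0299) and that to HE1 (0.66 ± 0.18, adjusted p = 0.0200) passed the test but were under 2-fold. Per kb it was the highest member in both libraries of ES, HB and HP. In HE2 it led in the mean and in the second library, whereas in the first Col4a1 and Col18a1 (267 and 211 CPM per kb) lay above it (209.7). Itgb1 made up between 79.8% and 96.7% of the summed β subunits among the members in each library. That sum leaves out Itgb3, the platelet β subunit that is no member, which stood at 16.4 and 11.6 CPM per kb in HE1, at 180.5 and 238 in HE2 and at 267 and 193 in HP. With Itgb3 in the sum, the share of Itgb1 was 90.8% and 88.4% in HE1 but 52.6% and 41.7% in HE2 and 37.1% and 42.1% in HP, where Itgb3 held the larger share. Itgb5 dropped from 75.5 and 93.0 CPM in HB to 21.5 and 34.1 in HE1 (-1.60 ± 0.26, adjusted p = 0.00126). It was called lower again in HE2, at 13.9 and 8.38 CPM, but not without HE1 replicate 2 (-0.95) or HE2 replicate 2 (-0.99).

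Itga4 and Itga9, whose products bind VCAM1 and related ligands, crossed over. Itga4, a homing receptor of blood progenitors, was at 0.692 and 0.602 CPM in ES, at 3.74 and 3.07 in HB, at 27.0 and 8.72 in HE1, at 82.0 and 146 in HE2, and at 191 and 172 in HP. No library of a stage overlapped with the stage before it. It rose by 2.37 ± 0.55 from ES to HB (adjusted p = 0.00571), 2.38 ± 0.46 from HB to HE1 (adjusted p = 0.00338) and 2.68 ± 0.44 from HE1 to HE2 (adjusted p = 0.00631). From HE2 to HP the change of 0.67 ± 0.40 did not pass (adjusted p = 0.838). The first of these steps missed the threshold in limma-voom (adjusted p = 0.0722). HE1 libraries set the size of the others: the rise to HE1 was 1.32 without HE1 replicate 1 and 2.99 without HE1 replicate 2, the rise to HE2 3.74 and 2.08, and the rise from HE1 to HP, 3.35 ± 0.45 in all libraries, 4.40 and 2.75.

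Itga9 took the opposite course after HB. It was at 23.5 and 24.4 CPM in ES, at 73.4 and 90.4 in HB, at 30.7 and 25.7 in HE1, at 19.7 and 8.79 in HE2, and at 7.89 and 8.46 in HP. It rose by 1.78 ± 0.30 from ES to HB (adjusted p = 0.000947) and changed by -1.54 ± 0.30 to HE1 (adjusted p = 0.00355) and by -1.79 ± 0.31 from HE1 to HP (adjusted p = 0.00261).

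Of 5 leukocyte integrin subunits, 4 were called higher in HP than in HE1, as were 5.35% of all tested genes. Itgb2, the common β subunit of leukocyte integrins, was at 0.532 and 0.459 CPM in ES, at 0.893 and 1.10 in HB, at 2.82 and 2.18 in HE1, at 10.2 and 11.1 in HE2 and at 22.7 and 22.1 in HP. Its libraries did not overlap between any neighbouring stages. It rose by 1.32 ± 0.27 from HB to HE1, not called without HB replicate 1 (1.11, adjusted p = 0.0503), by 2.09 ± 0.25 from HE1 to HE2 (adjusted p = 0.00140) and by 3.17 ± 0.26 from HE1 to HP (adjusted p = 7.94e-05). Its partner Itgal was at 5.85 and 4.70 CPM in ES, at 0.331 and 0.197 in HB, at 0.589 and 0.396 in HE1, at 1.92 and 2.06 in HE2, and at 5.02 and 3.21 in HP. From ES to HB it changed by -4.32 ± 0.47 and from HE1 to HP by 3.07 ± 0.44 (adjusted p = 0.00106), and its rise to HE2 (2.02 ± 0.44) was not called without HE1 replicate 2 (adjusted p = 0.10) or HE2 replicate 2 (adjusted p = 0.0958). Itgax, a myeloid subunit, had no count in HB and 2.14 and 4.26 CPM in HP.

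Itgb7, which joins α4 on lymphocytes, was foremost an ES transcript. It was at 41.7 and 41.7 CPM in ES, at 2.94 and 3.72 in HB, at 1.14 and 1.95 in HE1, at 1.92 and 1.27 in HE2, and at 4.49 and 3.47 in HP. Its rise from HE1 to HP (1.35 ± 0.31, adjusted p = 0.0111) was not called without HP replicate 1 (adjusted p = 0.0753), and its drop from HB to HE1 (-1.10 ± 0.31) not without HB replicate 2 or HE1 replicate 1 (-0.96 and -0.82). Spn (CD43), a leukocyte surface protein on the list of blood markers, showed the same shape, at 40.8 and 40.9 CPM in ES, at 0.673 and 0.198 in HE1 and at 9.10 and 6.39 in HP. The rest of that list, Ptprc, Spi1, Runx1, Gata1, Vav1 and Itga2b, went the other way. Their mean levels ran from 0.528 to 2.79 CPM in ES and from 43.0 to 467 CPM in HP.

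**Figure D3:**
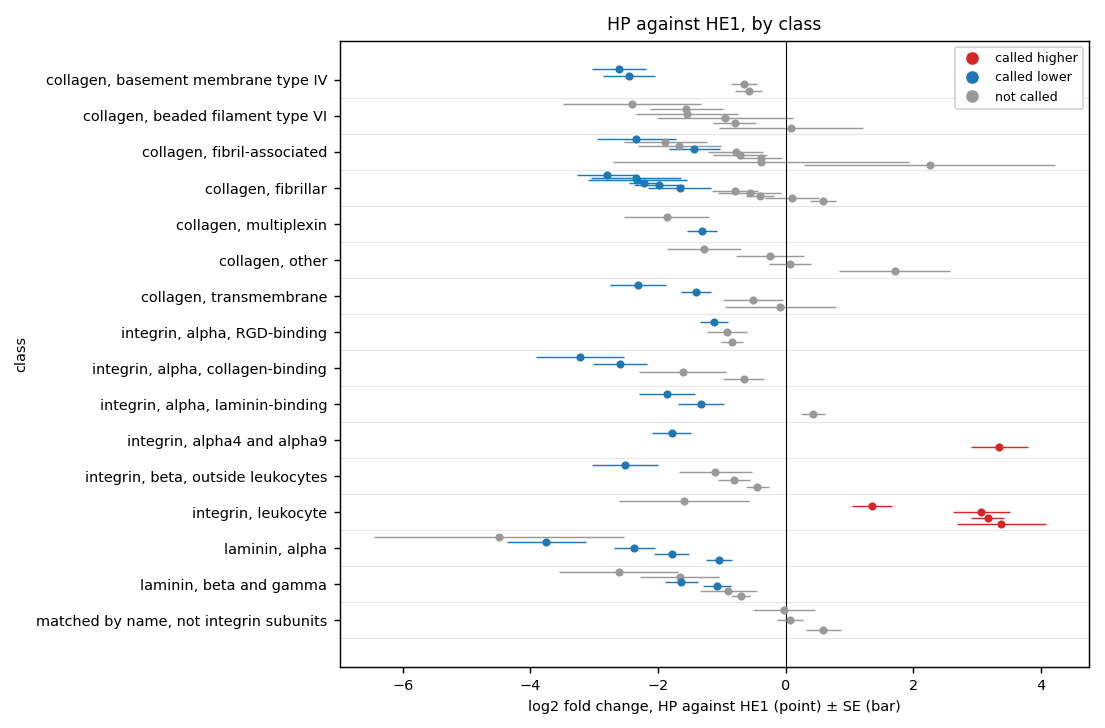
Log2 fold change of HP against HE1 for the 75 members by class, with bars of 1 SE; red points were called higher, blue points lower and grey points not called. The 5 red points are Itga4, Itgal, Itgax, Itgb2 and Itgb7, and no collagen or laminin chain is among them.

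Per kb of exon, the make-up of each family changed with the stage. Among laminin α chains, Lama5 held 82.9% and 82.7% of the sum in ES and 48.2% and 54.9% in HE1, while Lama4 went from 0.266% and 0.273% to 33.7% and 20.8%. In HP, Lama1 reached 37.1% and 25.0%. The sum itself fell from 139 and 148 CPM per kb in ES to 11.5 and 13.3 in HP, so that larger shares in HP stood for lower levels. Among the integrin α subunits that are members, which leaves out the sort antigen Itga2b and Itgam, Itga6, Itga3 and Itga5 held 30.5%, 29.1% and 24.0% of the ES mean. Itga5 led in HB and HE1 with 41.3% and 37.7%. In HP, Itga5, Itga6, Itga4, Itgav and Itga3 took 27.8%, 21.4%, 15.8%, 14.7% and 12.6%, and Itga4 had stood at 0.0323% in ES. Itga2b itself was at 73.4 and 67.2 CPM per kb in HP, above every α subunit among the members, and with both in the sum it held 45.0% and 44.3% there and Itga5 14.1% and 14.9%. Among collagen chains, Col18a1 held 67.8% in ES, Col4a1 and Col4a2 together led in HB and HE1 with 39.3% and 27.0% in HE1, and in HP no chain held more than 27.3% in either library. In HP, Itga4 (13.6 and 12.3 CPM per kb) overlapped with Itgav (11.6 and 12.5), and Itgav with Itga3 (12.0 and 8.79).

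**Figure D4:**
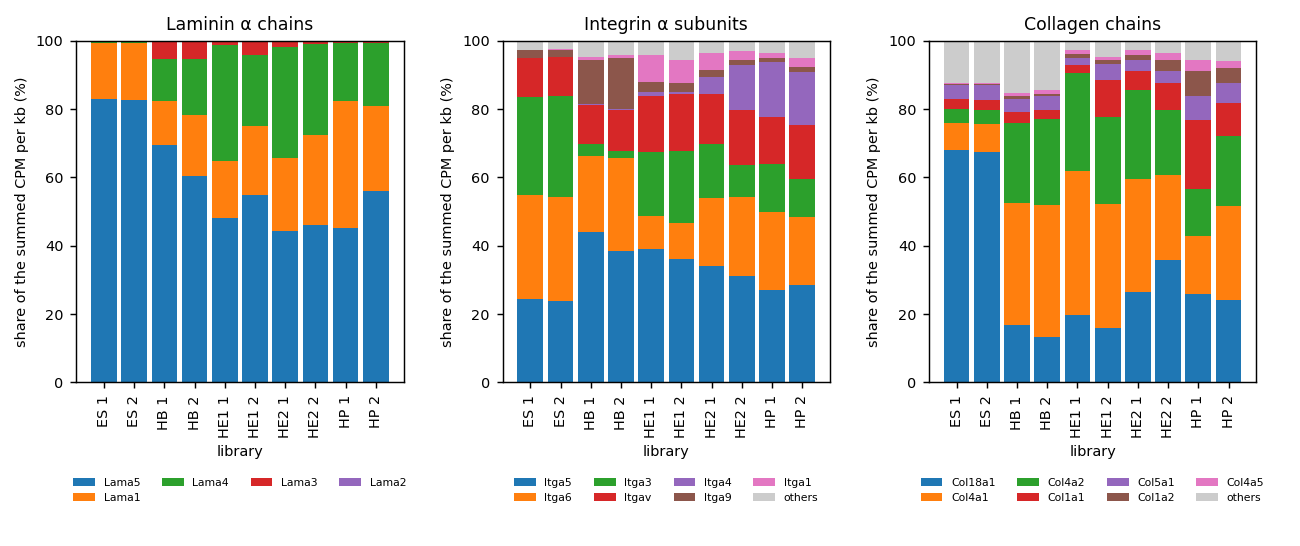
Share of the summed CPM per kb of exon held by each laminin α chain, integrin α subunit and collagen chain among the members in the 10 libraries, Itga2b and Itgam being left out; each bar adds up to 100%, and grey stands for members outside the first 7. Lama5 and Col18a1 fill most of the ES bars, Lama4, Col4a1 and Col4a2 expand in HB and HE1, and Itga4 appears from HE2 onwards.

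Of 26 genes that process collagen, 6 were higher and 4 lower from ES to HB, 7 and 2 from HB to HE1, and 1 and 12 from HE1 to HP, with the share of all tested genes as given above for each comparison. Bmp1, the protease that trims fibrillar procollagen, was at 32.9 and 25.6 CPM in HB, at 210.1 and 258 in HE1, and at 36.9 and 49.4 in HP. Loxl1, a cross-linking oxidase, rose from 0.760 and 0.366 CPM to 7.07 and 20.5 between HB and HE1. Adamts3, a procollagen peptidase, ran against this. It was at 1.95 and 2.32 CPM in ES, at 48.7 and 52.4 in HB, at 9.84 and 6.34 in HE1 and 34.7 and 43.6 in HP.

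Among 17 other matrix proteins, HE1 had 7 higher and 3 lower relative to HB, and HP had none higher and 12 lower relative to HE1. The shares of all tested genes were 12.7% and 8.19%, and 5.35% and 11.2%. Thbs1 (thrombospondin 1) was at 248 and 262 CPM in ES, at 7.54 and 4.11 in HB and at 401 and 617 in HE1, the course of Col18a1 and Itga3. Fbn2, an embryonic fibrillin, was at 7.86 and 9.01 CPM in ES and 231 and 244 in HB. Fbn1, its adult counterpart, and Tnc (tenascin C) were at 1207 and 759 CPM and at 371 and 483 CPM in HE1, and at 48.3 and 133 CPM and at 59.5 and 57.6 CPM in HP. Of 10 matrix proteases and inhibitors, 7 fell and none rose from HE1 to HP (11.2% and 5.35% of all tested genes), among them Mmp2 (162 and 128 to 41.7 and 40.9 CPM) and Mmp15 (62.6 and 41.9 to 5.29 and 10.9 CPM).

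The 12 receptors outside the integrins gave 3 higher and 6 lower calls from ES to HB, 3 and 1 from HB to HE1, and 1 and 3 from HE1 to HP. All tested genes gave 11.5% and 17.3%, 12.7% and 8.19%, and 5.35% and 11.2% in these comparisons, so that a single call among 12 is near the background. Bcam, a receptor for Lama5, fell from 315 and 332 CPM in ES to 15.7 and 11.5 in HB, and Ddr2, a kinase receptor for fibrillar collagen, from 21.0 and 20.5 CPM to 0.298 and 0.0563. Cd44 rose from 20.6 and 21.6 CPM in HB to 108 and 144 in HE1. Of 6 counter-receptors and soluble ligands of integrins, HB had 1 higher and 4 lower relative to ES, and HE1 had 5 higher and none lower relative to HB. Spp1 (osteopontin) was at 414 and 426 CPM in ES and 1.06 and 0.507 in HB, and Icam1, the ligand of αL with β2, at 152 and 158 CPM and at 8.6 and 7.27 CPM. Icam1 then rose to 55.0 and 18.6 CPM in HE1 (2.21 ± 0.39, adjusted p = 0.00221).

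Inside the cell, the integrin adhesion complex was covered by 23 genes, of which 11 rose and 1 fell from HB to HE1, whereas 6 rose and 5 fell from HE1 to HP. Of all tested genes, 12.7% rose and 8.19% fell at the first of these and 5.35% and 11.2% at the second. The kindlins, which switch integrins on, moved in opposite directions. Fermt3, the blood form, was at 57.3 and 37.7 CPM in HE1, at 153 and 231 in HE2 and at 272 and 230.2 in HP, a log2 fold change of 2.40 from HE1 to HP (adjusted p = 0.000198). Fermt2, the form of adherent cells, was at 178 and 144 CPM in HE1 and at 45.5 and 41.6 in HP (-1.89, adjusted p = 0.000878). Apbb1ip (RIAM), which brings talin to integrins in leukocytes, went from 1.35 and 1.12 CPM to 10.9 and 15.0, and Parva, which links integrins to actin, from 205 and 163 CPM to 51.8 and 49.0.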

How the data were processed

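Nuclear RNA depleted of rRNA was sequenced with a stranded protocol in 10 libraries of 5 stages (n = 2 each). The authors removed residual rRNA reads with RiboDetector, trimmed with Trimmomatic, mapped reads with Hisat2 (v2.2.1) onto mm10 and deposited raw counts per gene from featureCounts (v2.0.1, Ensembl release 102). Per the file headers, read pairs were counted in the reverse-stranded mode on exons, and a pair overlapping several genes was counted on each. The authors also deposited 1 expression score per gene and stage, made after normalization with edgeR and averaging over libraries. How these 15686 genes were chosen is not given in the sources used here, and the scores served only to list the members.

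The tests were run in R (v4.3.3) with edgeR (v4.0.16). Of 55487 genes, 22596 passed filterByExpr. Library sizes (24920434 to 58782055 counts) were scaled with TMM, and all 10 libraries entered a single quasi-likelihood fit by stage, without covariates (5 residual degrees of freedom). The F test was adjusted over every gene tested (Benjamini-Hochberg), and calls needed an adjusted p under 0.05 with a 2-fold change or more. SE is the log2 fold change divided by the root of F. Fits were tested on simulated data. A member was named if it was among up to 3 called rises and 3 called falls with the largest change per class and comparison at 9 CPM or more in 1 stage, or is a textbook chain; pathway genes likewise, up to 2 each way. Others named were chosen after their values were seen. The values of 1 member are not reported here by name, and it is counted in all totals. Members and lists were chosen with earlier results of these data known, and Itgb1bp2 and Itgb3bp were put into their class after the files were read. Alternatives were limma-voom (v3.58.1), DESeq2 (v1.42.0), no TMM scaling, no filter, only the 4 libraries compared, a replicate block, a 4-fold limit, library sizes without the 20 top genes, only the genes of the matrix, and leaving out each library. Tables and figures were made in Python (v3.11.15), matplotlib (v3.10.9) and pandas (v2.3.3).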

Additional observations from a re-analysis of the deposited data

How the results depend on the processing

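No change of a member named by the rule turned direction under any alternative; of the others named, Col6a4 in HE1 against HB did (-0.12 without HE1 replicate 2). Of 90 counts of called members under settings other than leaving out a library, 76 stayed within 1.5 times the reported count, and of 728 refits (91 named changes under 8 of these settings, the 4-fold limit left out) 714 kept the call. At a limit of 4-fold, 15 members were higher in HB than in ES, 7 lower in HE1 than in HB, 6 lower in HE2 than in HE1 and 13 lower in HP than in HE1. Members lower in HE2 than in HE1 numbered 24 with DESeq2, 28 without the filter on low counts, 19 with only the genes of the averaged matrix and 4 with only the 4 libraries compared. All tested genes moved as well, with 1795 of 22596, 2864 of 39019, 1221 of 15565 and 171 of 18939 in the same order. The main fit called 12 members and 1217 of 22596 genes. Members higher and lower in HP than in HE2 were 1 and 1 with limma-voom, 2 and 7 with DESeq2, and 3 and 9 without the filter. Without the filter, 145 and 389 of 39019 tested genes were called higher and lower. The causes were not tested.

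With each library left out in turn, members higher in HB than in ES ran from 14 to 24 and lower from 20 to 24, higher in HE1 than in HB from 21 to 33 and lower from 9 to 14, higher in HE2 than in HE1 from 2 to 4 and lower from 0 to 33. For HP against HE1 the ranges were 4 to 5 and 16 to 36, and for HP against HE2 0 to 0 and 0 to 9. A stage then keeps 1 library, which is assumed to vary like the others. The numbers of all tested genes called also moved with the library left out. Of 910 such refits of the 91 named changes, 851 kept the call.

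The replicate numbers were not stated to mark shared cultures. Deviations of same-numbered libraries from their stage means correlated between -0.316 and 0.213 over the 10 pairs of stages, above 0.1 in 2 of them. These correlations, like the replicate block, cannot show whether libraries with different numbers shared a culture or batch. With the replicate block no count of called members moved beyond 1.5 times, and the calls of Itga7 and Lama3 in HE2 against HE1 were lost (adjusted p = 0.0778 and 0.0675). With 2 libraries per stage, a member with levels near the floor of 3 counts that was not called was not shown to be unchanged.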
